A study of Homo sapiens with 21 samples.

Results

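The genes described here are the insulin receptor (INSR), the related receptor IGF1R, their adaptors IRS1 and IRS2, the PI3-kinase genes PIK3CA, PIK3R1 and PIK3IP1, and the transcription factors FOXO1, FOXO3 and FOXO4. They were picked by symbol from the count table, which held all 10 of them among 16553 genes, and all 10 were among the 15969 genes tested after low counts were removed. The RNA came from AU565, an established breast carcinoma line whose ERBB2 gene is amplified, labelled wild type. The cells grew as monolayers or, in liquid overlay with 5% matrigel, as 3D aggregates. Trastuzumab, an antibody against HER2 (the ERBB2 product), was given or withheld, and 21 libraries formed 7 groups of 3. Untreated monolayers were the 2D control. Acutely exposed monolayers had 20 µg/ml for 24 h, and primed monolayers were exposed likewise and then kept for 96 h. Untreated aggregates were kept for 96 h, and primed aggregates grew for 96 h from cells exposed as a monolayer to 20 µg/ml for 24 h. Treated aggregates had 96 h of growth and then 50 µg/ml for 24 h, and primed and treated aggregates had both exposures. All groups share 1 cell line, and both groups given the late dose had been in 3D for 24 h more than the untreated or primed aggregates. The labels do not state whether the antibody was removed after the first exposure, and they give no untreated monolayer kept for the added 96 h. Whether the 3 replicates of a group were separate cultures is not stated, and the p-values measure their spread only, which may be technical.

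Insulin binds INSR and the insulin-like growth factors bind IGF1R, and both receptors recruit IRS adaptor proteins, which carry the signal to PI3-kinase. PI3-kinase, a catalytic subunit such as the PIK3CA product held by a regulatory subunit such as the PIK3R1 product, makes a membrane lipid that activates the kinase AKT, and HER2 with its partner HER3 (ERBB3) feeds the same enzyme. AKT phosphorylates FOXO factors and keeps them out of the nucleus. When PI3-kinase or AKT is inhibited, FOXO enters the nucleus and raises receptor genes, INSR and ERBB3 among them, a feedback known in breast cancer cells.

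Total counts were 15005070 to 26921113 per library. The markers of the line were high in all groups, with ERBB2 at group means of 6189 to 9937 CPM (read count relative to library size) and the keratin KRT8 at 1137 to 3643. Transcripts typical of other tissues divided the libraries into 2 sets. The melanocyte gene TYRP1 was at 5.70 to 33.1 CPM and the matrix gene POSTN at 10.8 to 28.9 in 12 libraries (untreated and acutely exposed monolayers, untreated and primed aggregates), while the 9 others held no more than 0.256 and 0.138. Those 9 (primed monolayers, treated aggregates, primed and treated aggregates) held the kidney gene UMOD at 0.825 to 22.8 CPM and the neuronal gene SNAP25 at 4.36 to 17.3, while the 12 held no more than 0.0588 and 0.507. Summed over 8 of 8 kidney genes the 12 held 0.562 to 1.55 CPM and the 9 held 6.46 to 43.1. Summed over 7 of 7 melanocyte genes the 12 held 16.7 to 109.5 CPM and the 9 held 1.64 to 4.196. The sum over 7 of 8 brain genes did not divide them, since primed monolayers, at 14.04 to 16.4 CPM, overlapped untreated monolayers at 12.99 to 19.5 and primed aggregates at 10.1 to 15.0. The cardiac myosin MYH7 was at 20.6 CPM or more in 6 libraries (untreated monolayers 1 and 2, acutely exposed monolayers 2 and 3, untreated aggregates 1 and 2) and at most 0.110 in the others. The sum over 10 of 10 striated muscle genes did not follow it: untreated aggregates held 210.4 to 248 CPM, the library with MYH7 at 0 included, and acutely exposed monolayers 98.3 to 189. Amounts also differed within the 12. TYRP1 was at 5.70 to 8.21 CPM in untreated and 18.6 to 32.1 in primed aggregates. The melanocyte sums there were 16.7 to 23.3 and 54.4 to 93.2 CPM, also with no overlap. POSTN overlapped between these groups, at 13.2 to 22.3 and 18.3 to 22.4 CPM. No group had libraries in both sets, so in a comparison between the sets the set and the treatment cannot be told apart. Such comparisons are named below as crossing the sets, and the part these transcripts play in the other results was not tested.

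Levels are CPM scaled by TMM factors, and levels of different genes are compared only per kilobase of exon (CPM per kb, exon union of GENCODE 29). The annotation used for counting is not given, so orders and ratios between genes depend on the lengths used here. Fewer cells of a type and less RNA per cell cannot be told apart in such bulk samples. In untreated monolayers FOXO1 (5.58 ± 0.296 CPM per kb, SD, n = 3) and PIK3CA (5.48 ± 0.278) were the highest of the 10, followed by FOXO4 (4.45 ± 0.225) and FOXO3 (3.38 ± 0.165). INSR (1.48 ± 0.162), IRS1 (0.925 ± 0.0236) and IRS2 (0.174 ± 0.0707) were low, and IRS2 was the lowest of the 10 in each of the 7 groups. In treated aggregates PIK3IP1 (10.4 ± 0.381 CPM per kb) and FOXO3 (7.25 ± 0.192) were the highest. IRS2 varied most across the groups, 10.7-fold between the lowest and highest group mean, and PIK3CA least, 1.46-fold. The others varied by 6.61-fold (PIK3IP1), 3.89-fold (INSR), 3.78-fold (FOXO4), 3.33-fold (IRS1), 2.97-fold (FOXO3), 2.71-fold (IGF1R), 2.60-fold (PIK3R1) and 1.73-fold (FOXO1).

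**Figure D1:**
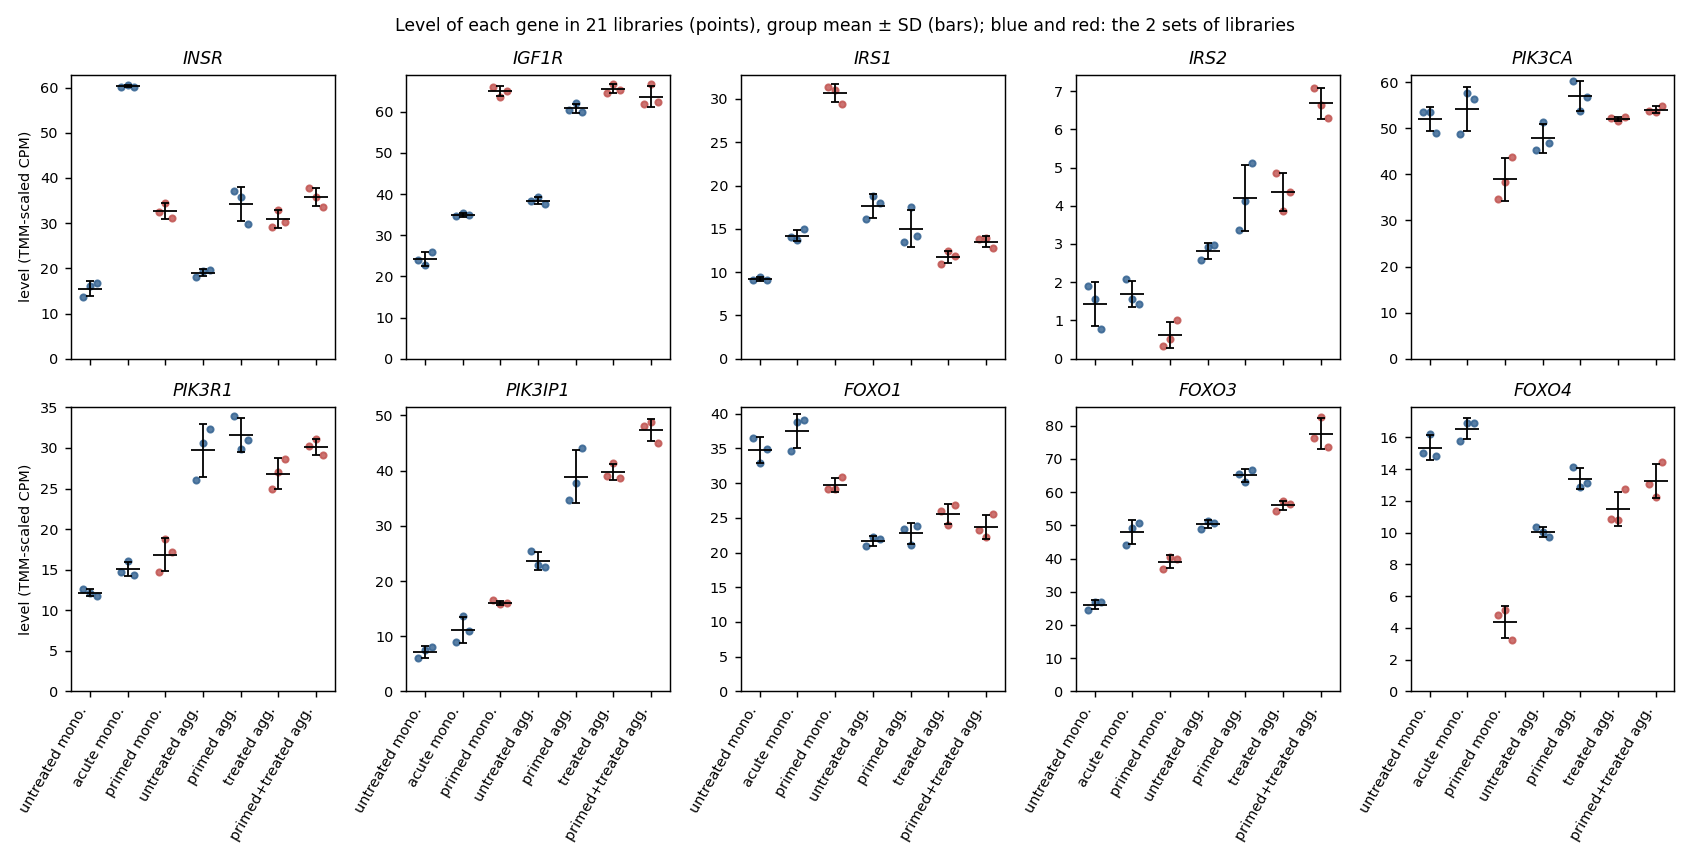
Level of each of the 10 genes in CPM (vertical axes, from 0) in the 21 libraries (points) of 7 groups, with group mean ± SD as bars. Blue points are the 12 libraries and red points the 9 libraries that tissue transcripts divide. INSR stood at 60.1 to 60.6 CPM in the 3 acutely exposed monolayers, above all 18 other libraries.

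Each comparison was a robust quasi-likelihood test in edgeR over all genes, and genes whose Benjamini-Hochberg adjusted p was under 0.05 are called changed. The 10 genes, and the pathway lists used below, were chosen with earlier results of these data known. Their counts beside the shares of all genes are therefore a description. After 24 h of trastuzumab in monolayers 6 of the 10 genes rose and 0 fell, where 20.2% of all genes changed (11.3% rose and 8.91% fell). The 6 were INSR, IGF1R, IRS1, FOXO3, PIK3IP1 and PIK3R1, and the median log2 fold change of the 10 was 0.42, against −0.017 over all genes. In primed aggregates, sampled 96 h after the 24 h exposure, 6 rose and 0 fell against untreated aggregates (21.2% of all genes changed, 11.5% up and 9.66% down), namely INSR, IGF1R, FOXO3, FOXO4, PIK3IP1 and PIK3CA. INSR, IGF1R, FOXO3 and PIK3IP1 were the 4 that rose in both, as did 3.83% of all genes. Growth in 3D, the name used here for untreated aggregates against untreated monolayers, went with 7 rises and 2 falls (64.1% of all genes changed, 32.9% up and 31.1% down). Of these 2 groups only the aggregates had 96 h of incubation and 5% matrigel. Time, matrigel and culture form cannot be told apart there. Untreated monolayers and untreated aggregates each serve as control in several of these comparisons. In primed and treated against treated aggregates, within the set of 9 libraries, 2 rose and 0 fell (7.98% of all genes changed, 3.18% up and 4.80% down).

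The other pairwise comparisons cross the sets. In primed against untreated monolayers 6 rose and 4 fell (65.3% of all genes changed, 33.7% up and 31.6% down), and in primed against acutely exposed monolayers 3 rose and 6 fell (62.4%, 32.3% and 30.1%). The falls of FOXO1 (log2 −0.34) and FOXO3 (−0.30) in the latter were no longer called once the MYH7 libraries were left out (−0.22 and −0.17). In treated against untreated aggregates 5 rose and 1 fell (36.7%, 18.8% and 17.9%), and in primed and treated against untreated aggregates 6 rose and 1 fell (35.5%, 17.6% and 17.9%). The second dose, primed and treated against primed aggregates, went with 3 rises and 0 falls (29.8%, 14.9% and 14.8%), and with 1 rise without primed aggregate 1. The 3 libraries of one group lay wholly above or below those of the other for 6 of the 10 genes in acutely exposed monolayers (36.8% of all genes), 9 with growth in 3D (65.5%), 7 in primed aggregates (30.6%) and 7 with priming in treated aggregates (29.3%). Across the sets they did so for 9 in primed against untreated monolayers (68.1%), 9 in primed against acutely exposed monolayers (66.6%), 9 in treated aggregates (46.4%), 8 in primed and treated aggregates (45.2%) and 3 with the second dose (41.7%). INSR, IGF1R and PIK3IP1 were the 3 genes called higher in each of the 5 exposed groups against its untreated control, as were 1.52% of all genes. These 5 comparisons share 2 control groups, and 3 of them cross the sets.

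**Figure D2:**
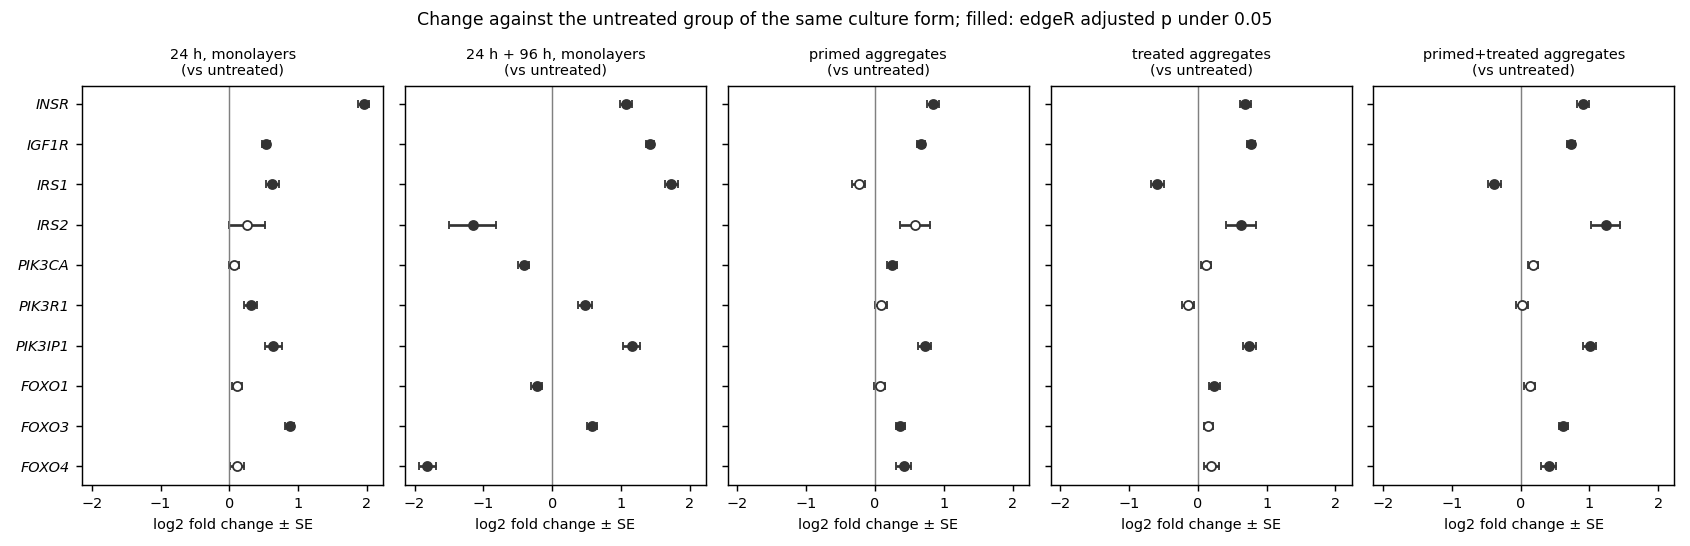
Log2 fold change ± SE (horizontal axes) of each gene in the 5 exposed groups against the untreated group of the same culture form. Filled points passed the edgeR threshold and open points did not. INSR, IGF1R and PIK3IP1 lie to the right of 0 in all 5 panels, and IRS1 lies to the right in both monolayer panels and to the left in the 3 aggregate panels.

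The stretch just upstream of the start is shown for the 4 genes that rose both in acutely exposed monolayers and in primed aggregates, to show which letters they share there and whether a FOXO element is among them. Sequences are from RefSeq (GRCh38.p14), 250 bases before the start and 5′ to 3′ on the gene's strand: INSR at chr19:7294415-7294664 (minus strand), IGF1R at chr15:98648289-98648538 (plus), FOXO3 at its first start, chr6:108559575-108559824 (plus), and PIK3IP1 at its upstream start, chr22:31292535-31292784 (minus). Capitals mark the GC box GGGCGG on either strand.
INSR: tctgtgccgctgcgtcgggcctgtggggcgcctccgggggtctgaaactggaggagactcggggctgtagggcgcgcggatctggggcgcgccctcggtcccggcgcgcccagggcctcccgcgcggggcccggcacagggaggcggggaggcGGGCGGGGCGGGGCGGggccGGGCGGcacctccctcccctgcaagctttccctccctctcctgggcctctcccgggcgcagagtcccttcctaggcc
IGF1R: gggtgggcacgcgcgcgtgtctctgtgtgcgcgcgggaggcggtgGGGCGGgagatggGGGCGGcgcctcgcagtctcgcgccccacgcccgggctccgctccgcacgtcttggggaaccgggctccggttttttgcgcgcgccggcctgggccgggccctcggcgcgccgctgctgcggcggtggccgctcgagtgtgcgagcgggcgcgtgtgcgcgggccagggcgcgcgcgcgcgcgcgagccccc
FOXO3: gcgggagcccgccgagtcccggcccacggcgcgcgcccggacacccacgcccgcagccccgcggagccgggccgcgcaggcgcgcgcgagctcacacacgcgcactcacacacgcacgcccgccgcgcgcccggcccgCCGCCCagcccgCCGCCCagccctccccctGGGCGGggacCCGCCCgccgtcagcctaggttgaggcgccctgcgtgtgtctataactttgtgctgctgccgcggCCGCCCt
PIK3IP1: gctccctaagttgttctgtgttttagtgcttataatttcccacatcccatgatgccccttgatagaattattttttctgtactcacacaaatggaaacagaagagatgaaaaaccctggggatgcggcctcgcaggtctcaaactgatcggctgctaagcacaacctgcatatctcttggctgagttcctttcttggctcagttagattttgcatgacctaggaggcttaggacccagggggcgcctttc
The FOXO core GTAAACA, searched on both strands, was in 1 of the 17 windows of the 10 genes (PIK3CA, at position −149 from the start) and in 2.98% of all 35116 RefSeq windows of this length. The shorter TAAACA, which lies within it, was in 3 of 17 (PIK3CA, 1 of 4 FOXO3 starts and 1 of 4 PIK3R1 starts) and in 10.99% of all. GGGCGG was in 11 of 17 windows and in 42.6% of all. The INSR, IGF1R and first FOXO3 windows were 78.4%, 81.2% and 80.4% G and C, with 4, 2 and 5 GC boxes, while the PIK3IP1 window was 46.8% with 0. These are letter matches in a short window and say nothing about elements elsewhere.

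INSR (Entrez 3643, chromosome 19, 7112265 to 7294414 on GRCh38) encodes the receptor for insulin. It was at 13.6, 16.1 and 16.8 CPM in untreated monolayers and at 60.2, 60.6 and 60.1 in acutely exposed ones, with no overlap. The rise was 3.87-fold (log2 1.95, SE 0.082, edgeR adjusted p = 7.05e-19), the largest of the 10 genes in this comparison. In primed monolayers it was at 32.4, 34.5 and 31.1 CPM, between these groups, 2.10-fold above untreated (log2 1.07, SE 0.086, edgeR adjusted p = 6.01e-13) and below acutely exposed monolayers (log2 −0.88, SE 0.078, edgeR adjusted p = 6.83e-12), both across the sets.

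Untreated aggregates held INSR at 18.1, 19.5 and 19.7 CPM. That was 1.23-fold above untreated monolayers (log2 0.29, SE 0.090, edgeR adjusted p = 0.00478), a call lost without untreated monolayer 1 (0.21) and without the 6 libraries with MYH7 (0.23). Primed aggregates held 37.0, 35.8 and 29.9 CPM, all above the untreated aggregates (log2 0.84, SE 0.084, edgeR adjusted p = 5.59e-09). Treated aggregates, at 29.2, 33.0 and 30.4 CPM, and primed and treated aggregates, at 37.7, 35.8 and 33.7, also stood above the untreated ones (log2 0.69 and 0.90, edgeR adjusted p = 5.09e-08 and 1.60e-10). A second dose in primed aggregates gave log2 0.064 (95% interval −0.10 to 0.23, edgeR adjusted p = 0.581). Priming in treated aggregates gave 0.21 (0.047 to 0.38, edgeR adjusted p = 0.0876), and this passed with only the compared groups fitted (adjusted p = 0.0340). By group mean the order was untreated monolayers, untreated aggregates, treated aggregates, primed monolayers, primed aggregates, primed and treated aggregates and acutely exposed monolayers, and each of the middle 4 overlapped its neighbour among them.

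IGF1R (Entrez 3480, chromosome 15, 98648539 to 98964530) encodes the receptor for the insulin-like growth factors. It was at 24.0, 22.7 and 25.9 CPM in untreated, 34.5, 35.5 and 34.8 in acutely exposed and 66.1, 63.7 and 65.0 in primed monolayers. The 3 groups did not overlap. The acute rise was 1.44-fold (log2 0.53, SE 0.061, edgeR adjusted p = 3.67e-08), and primed monolayers stood above both untreated (log2 1.42, SE 0.060, edgeR adjusted p = 2.43e-20) and acutely exposed ones (log2 0.89, SE 0.058, edgeR adjusted p = 3.26e-15). INSR was lower in primed than in acutely exposed monolayers and IGF1R higher, both across the sets.

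Aggregates held IGF1R at 38.3, 39.2 and 37.6 CPM untreated and at 60.4, 62.0 and 60.03 primed. Untreated aggregates were above untreated monolayers (log2 0.67, SE 0.062, edgeR adjusted p = 1.73e-11) and primed above untreated aggregates (log2 0.66, SE 0.058, edgeR adjusted p = 3.59e-10). Treated aggregates were at 64.6, 66.8 and 65.3 CPM and primed and treated ones at 61.9, 66.7 and 62.5. The level in the 3 exposed aggregate groups and in primed monolayers lay within 60.03 to 66.8 CPM, and each of these 4 groups overlapped the next in order. Neither a second dose in primed aggregates (log2 0.066, 95% interval −0.052 to 0.18, edgeR adjusted p = 0.391) nor priming in treated aggregates (log2 −0.042, −0.16 to 0.074, edgeR adjusted p = 0.727) passed.

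Per kilobase the INSR to IGF1R ratio was 2.28 to 2.32 in acutely exposed monolayers, the only group above 1. It was 0.754 to 0.943 in untreated and 0.638 to 0.724 in primed monolayers. In the 4 aggregate groups it ran from 0.602 to 0.818. So in these libraries INSR exceeded IGF1R per kilobase in acutely exposed monolayers and was below it in the other 18. Gene counts do not separate the 2 splice forms of the insulin receptor.

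IRS1 (Entrez 3667, chromosome 2, 226731312 to 226799820) encodes the adaptor that couples both receptors to PI3-kinase. It was at 9.04, 9.48 and 9.11 CPM in untreated, 14.01, 13.7 and 14.9 in acutely exposed and 31.4, 31.0 and 29.5 in primed monolayers, again with no overlap. The acute rise was 1.54-fold (log2 0.63, SE 0.10, edgeR adjusted p = 1.31e-05) and primed monolayers were 3.32-fold above untreated ones (log2 1.73, SE 0.096, edgeR adjusted p = 4.25e-17, across the sets), the largest rise of the 10 in that comparison. Untreated aggregates held 16.1, 18.8 and 18.02 CPM, 1.91-fold above untreated monolayers (log2 0.94, SE 0.099, edgeR adjusted p = 4.11e-10).

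In aggregates IRS1 had the opposite sign. It fell in treated aggregates to 10.97, 12.4 and 11.9 CPM (log2 −0.59, SE 0.096, edgeR adjusted p = 9.24e-06) and in primed and treated aggregates to 13.8, 13.99 and 12.8 (log2 −0.39, SE 0.094, edgeR adjusted p = 0.00155), both across the sets and both with no overlap. Primed aggregates, within the set, held 13.4, 17.5 and 14.1 CPM, short of the threshold (log2 −0.23, SE 0.096, edgeR adjusted p = 0.0788). They passed the threshold without primed aggregate 2 (−0.36) or untreated aggregate 1 (−0.30).

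IRS2 (Entrez 8660, chromosome 13, 109752695 to 109786583), the second adaptor and a known FOXO target in liver, was the lowest of the 10, with 5 to 40 reads per monolayer library. It was at 1.91, 1.56 and 0.786 CPM in untreated and 2.09, 1.56 and 1.44 in acutely exposed monolayers, which overlapped (log2 0.26, SE 0.27, edgeR adjusted p = 0.558). Primed monolayers held 0.342, 0.511 and 1.01 CPM (log2 −1.15, SE 0.34, edgeR adjusted p = 0.00365), and they overlapped the untreated ones. Without the MYH7 libraries this fall was −0.32 and did not pass.

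IRS2 was higher in the 4 aggregate groups than in any monolayer library. It was at 2.59, 2.91 and 2.97 CPM in untreated aggregates, 2.01-fold above untreated monolayers (log2 1.01, SE 0.25, edgeR adjusted p = 0.000806). Primed aggregates held 3.37, 4.13 and 5.11 CPM and treated ones 4.86, 3.85 and 4.35, all above the untreated aggregates. Treated passed (log2 0.62, SE 0.22, edgeR adjusted p = 0.0236) and primed did not (log2 0.58, SE 0.22, edgeR adjusted p = 0.0595), although primed passed without primed aggregate 1 (0.71). The treated call was lost without treated aggregate 1 (0.53) or 3 (0.63), without untreated aggregate 1 (0.56) or 2 (0.64) and without the MYH7 libraries (0.55).

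With both exposures IRS2 reached 7.09, 6.64 and 6.29 CPM, above all 18 other libraries, 2.36-fold over untreated aggregates (log2 1.24, SE 0.21, edgeR adjusted p = 1.94e-05). IRS2 was higher with a second dose in primed aggregates, across the sets (log2 0.66, SE 0.20, edgeR adjusted p = 0.0118), a call lost without primed aggregate 1 (0.52). Priming in treated aggregates raised it at the edge of the threshold (log2 0.61, SE 0.20, edgeR adjusted p = 0.0459), and that call was lost without any 1 of the 6 libraries compared (log2 0.53 to 0.70). Per kilobase IRS1 made up 84.4 ± 5.58% of the 2 adaptors in untreated monolayers and 97.6 ± 1.42% in primed ones. In aggregates its share was 83.6 ± 0.434% untreated, 74.5 ± 4.47% primed, 68.8 ± 3.83% treated and 62.4 ± 0.958% with both exposures.

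PIK3CA (Entrez 5290, chromosome 3, 179148126 to 179240093) encodes the alpha catalytic subunit of PI3-kinase and PIK3R1 (Entrez 5295, chromosome 5, 68215756 to 68301821) its regulatory subunit. PIK3CA moved least. It was at 53.6, 53.5 and 48.9 CPM in untreated and 48.7, 57.6 and 56.4 in acutely exposed monolayers, which overlapped (log2 0.063, SE 0.071, edgeR adjusted p = 0.596), and at 34.6, 38.4 and 43.8 in primed monolayers, below both (log2 −0.42, SE 0.074, edgeR adjusted p = 9.42e-06 against untreated, across the sets). Primed aggregates, at 60.4, 53.8 and 56.8 CPM, stood above untreated ones at 45.4, 51.4 and 46.9 (log2 0.25, SE 0.072, edgeR adjusted p = 0.0115), a call lost without primed aggregate 1 (0.20), untreated aggregate 1 (0.21) or the MYH7 libraries (0.28). Treated (log2 0.12, edgeR adjusted p = 0.199) and primed and treated aggregates (log2 0.17, edgeR adjusted p = 0.0546) did not pass, the latter passing without untreated aggregate 2 (0.22), at a minimum mean of 10 CPM (adjusted p = 0.0424) and with only the compared groups fitted (adjusted p = 0.0460). Exons of KCNMB3, an ion channel subunit gene on the opposite strand, cover 35.8% of the PIK3CA exons. Its own count was 1.48 to 7.52% of that of PIK3CA, and the strand setting of the counting is not given in the sources used here.

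PIK3R1 differed chiefly between monolayers and aggregates. Monolayers held it at 12.6, 12.2 and 11.7 CPM untreated, 14.8, 16.1 and 14.4 acutely exposed and 14.7, 18.8 and 17.1 primed. Aggregates held it at 26.1, 30.6 and 32.3 untreated, 33.9, 29.9 and 31.0 primed, 24.9, 27.0 and 28.6 treated and 30.3, 31.0 and 29.1 with both exposures, and every aggregate library was above every monolayer library. With growth in 3D it was 2.44-fold higher (log2 1.29, SE 0.092, edgeR adjusted p = 2.55e-14). The acute rise in monolayers was 1.24-fold (log2 0.31, SE 0.096, edgeR adjusted p = 0.0196), and it was lost without acutely exposed monolayer 2 (0.26), untreated monolayer 2 (0.31) or 3 (0.29), or the MYH7 libraries (0.33). None of the 3 exposed aggregate groups passed against untreated aggregates (log2 0.088, −0.15 and 0.021, edgeR adjusted p = 0.520, 0.185 and 0.871), though treated aggregates were lower without untreated aggregate 1 (−0.24). Per kilobase the PIK3R1 to PIK3CA ratio was 0.206 ± 0.00544 in untreated monolayers and 0.547 ± 0.0541 in untreated aggregates.

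PIK3IP1 (Entrez 113791, chromosome 22, 31281593 to 31292534) encodes a membrane protein that binds PI3-kinase and lowers its activity. In monolayers it was at 6.01, 7.49 and 7.996 CPM untreated, 8.95, 13.6 and 10.9 acutely exposed and 16.5, 15.8 and 15.9 primed. These 3 groups did not overlap. The acute rise was 1.55-fold (log2 0.63, SE 0.12, edgeR adjusted p = 0.000239), and without the MYH7 libraries, which leaves 1 library per group that is assumed to vary like the rest, it was 0.16 and did not pass. Primed monolayers were 2.23-fold above untreated ones (log2 1.15, SE 0.12, edgeR adjusted p = 6.02e-10, across the sets).

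Untreated aggregates held PIK3IP1 at 25.4, 22.9 and 22.5 CPM, 3.27-fold above untreated monolayers (log2 1.71, SE 0.12, edgeR adjusted p = 1.30e-14), the largest rise of the 10 with growth in 3D. Primed aggregates held 34.7, 37.8 and 44.1 (log2 0.72, SE 0.098, edgeR adjusted p = 1.79e-06), and treated ones 39.1, 41.3 and 38.6 (log2 0.75, SE 0.096, edgeR adjusted p = 2.12e-07). With both exposures it was at 48.1, 48.9 and 45.1 CPM, above all 18 other libraries and 2.00-fold above untreated aggregates (log2 1.002, SE 0.095, edgeR adjusted p = 6.62e-10). A second dose in primed aggregates gave log2 0.28 (SE 0.091, edgeR adjusted p = 0.0183), which did not pass without primed aggregate 1 (0.21) or 2 (0.26) or primed and treated aggregate 1 (0.27) or 2 (0.26). Priming in treated aggregates gave 0.25 (95% interval 0.061 to 0.45, edgeR adjusted p = 0.0778), and passed with limma voom (adjusted p = 0.0290), without the MYH7 libraries (0.26) and with only the compared groups fitted (adjusted p = 0.00332).

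FOXO3 (Entrez 2309, chromosome 6, 108559825 to 108684774), a forkhead factor held in the cytoplasm by AKT, was at 24.7, 26.9 and 26.8 CPM in untreated, 44.1, 49.2 and 50.8 in acutely exposed and 36.8, 40.4 and 39.9 in primed monolayers. The 3 groups did not overlap. It rose 1.84-fold after 24 h (log2 0.88, SE 0.065, edgeR adjusted p = 2.05e-12) and was 1.49-fold above untreated in primed monolayers (log2 0.58, SE 0.068, edgeR adjusted p = 4.39e-09, across the sets). Untreated aggregates, at 48.9, 51.4 and 50.8 CPM, stood 1.92-fold above untreated monolayers (log2 0.94, SE 0.066, edgeR adjusted p = 1.43e-14) and overlapped the acutely exposed ones.

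In aggregates the 4 groups kept apart for FOXO3. Treated aggregates held 54.4, 57.3 and 56.4 CPM, primed ones 65.6, 63.0 and 66.7, and primed and treated ones 76.3, 82.7 and 73.7. Primed aggregates passed against untreated ones (log2 0.37, SE 0.062, edgeR adjusted p = 3.99e-05), and treated aggregates fell just short (log2 0.15, SE 0.062, edgeR adjusted p = 0.0520), passing with DESeq2 (adjusted p = 0.0407), RLE size factors (adjusted p = 0.0409) and a minimum mean of 10 CPM (adjusted p = 0.0276). Priming in treated aggregates raised FOXO3 1.38-fold (log2 0.47, SE 0.060, edgeR adjusted p = 1.82e-06), within the set. With the second dose it was 1.19-fold higher in primed aggregates (log2 0.25, SE 0.060, edgeR adjusted p = 0.00145), across the sets. FOXO3B, a near-identical copy on chromosome 17, had 14.1 to 26.7% of the FOXO3 count. How reads that match both were counted is not given in the sources used here. The FOXO3 levels are therefore uncertain, by an amount that the FOXO3B count does not bound. FOXO3B passed with growth in 3D (log2 0.64, SE 0.13, edgeR adjusted p = 3.83e-05) but not after 24 h in monolayers (log2 0.30, SE 0.13, edgeR adjusted p = 0.0910) or in primed aggregates (log2 0.094, SE 0.12, edgeR adjusted p = 0.649).

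FOXO1 (Entrez 2308, chromosome 13, 40555667 to 40666641), the forkhead factor best known from insulin action in liver, differed chiefly between monolayers and aggregates, in the direction opposite to FOXO3. Monolayers held it at 36.5, 32.8 and 35.0 CPM untreated, 34.7, 38.9 and 39.0 acutely exposed and 29.1, 29.1 and 30.9 primed. Aggregates held it at 20.9 to 26.8, all below every monolayer library. It was 0.625 of the monolayer level in untreated aggregates (log2 −0.68, SE 0.077, edgeR adjusted p = 1.83e-09). Acute exposure (log2 0.11, SE 0.072, edgeR adjusted p = 0.294) and primed aggregates (log2 0.070, SE 0.080, edgeR adjusted p = 0.601) did not pass. Primed monolayers were lower than untreated ones (log2 −0.23, SE 0.076, edgeR adjusted p = 0.00962) and treated aggregates higher (log2 0.24, SE 0.078, edgeR adjusted p = 0.0161), both across the sets and neither called without the MYH7 libraries (−0.24 and 0.22). The treated aggregate call was also lost without treated aggregate 1 (0.22) or 3 (0.20) or untreated aggregate 1 (0.21).

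FOXO4 (Entrez 4303, X chromosome, 71095851 to 71103532), the third FOXO gene, was at 15.0, 16.2 and 14.8 CPM in untreated and 15.8, 16.9 and 16.9 in acutely exposed monolayers (log2 0.11, SE 0.10, edgeR adjusted p = 0.517). Primed monolayers held 4.79, 5.11 and 3.23 CPM, below all 18 other libraries (log2 −1.81, SE 0.13, edgeR adjusted p = 1.50e-14, across the sets). That was the largest fall of the 10 genes in any pairwise comparison with an untreated group. Untreated aggregates held 9.69 to 10.3 CPM, below untreated monolayers (log2 −0.62, SE 0.11, edgeR adjusted p = 8.14e-06). Primed aggregates, at 14.1, 12.9 and 13.1, were above untreated ones (log2 0.42, SE 0.11, edgeR adjusted p = 0.00643), a call lost without the MYH7 libraries (0.46). Treated aggregates did not pass (log2 0.20, edgeR adjusted p = 0.172), and primed and treated ones did (log2 0.41, edgeR adjusted p = 0.00379), though not without the MYH7 libraries (0.45).

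Per kilobase, FOXO3 made up 25.2 ± 1.21% of the 3 FOXO genes in untreated monolayers, 36.5 ± 0.525% in acutely exposed and 45.6 ± 1.38% in primed ones. In aggregates its share was 50.5 ± 0.535% untreated, 52.8 ± 0.784% primed, 49.4 ± 1.92% treated and 56.8 ± 3.29% with both exposures. FOXO4 made up 33.2 ± 1.57% in untreated monolayers and 11.4 ± 2.58% in primed ones. FOXO1 went from 41.6 ± 2.30% in untreated monolayers to 27.0 ± 0.451% in untreated aggregates.

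**Figure D3:**
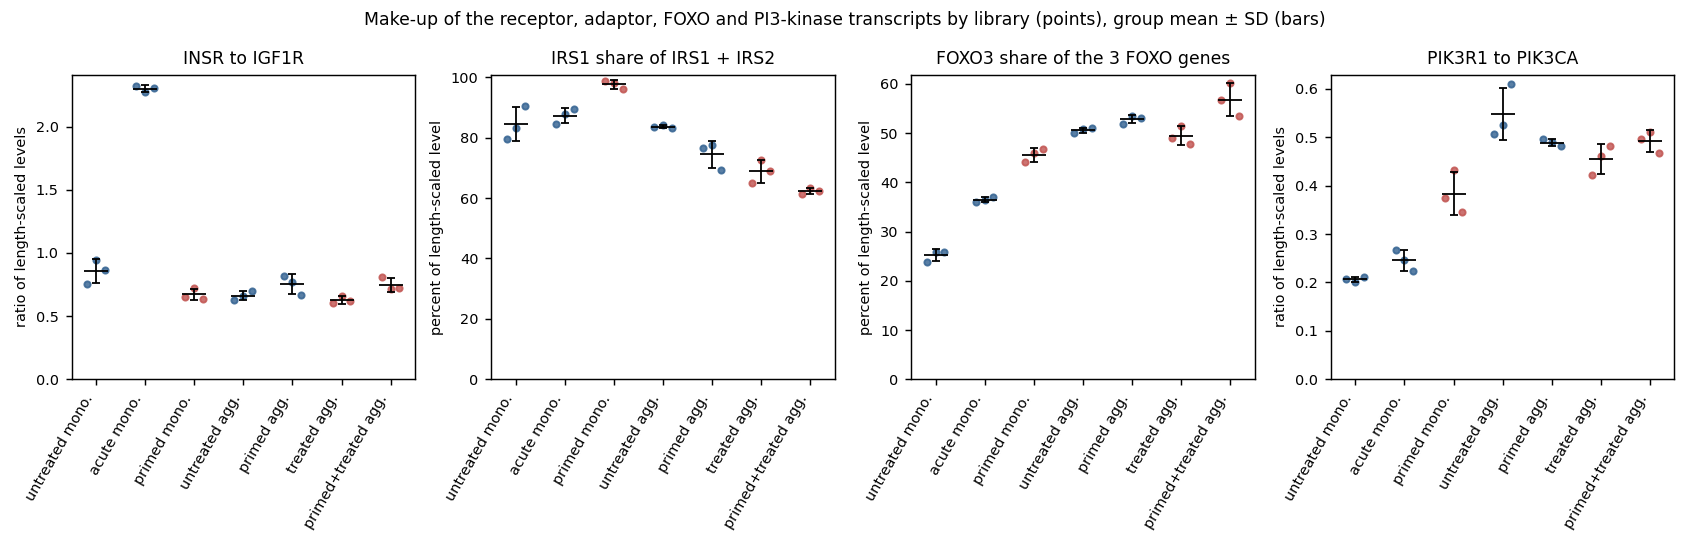
Length-scaled make-up in each of the 21 libraries (points; blue and red are the 2 sets) with group mean ± SD as bars: the INSR to IGF1R ratio, the IRS1 share of IRS1 and IRS2, the FOXO3 share of FOXO1, FOXO3 and FOXO4, and the PIK3R1 to PIK3CA ratio. The INSR to IGF1R ratio is above 1 in the acutely exposed monolayers alone, and the FOXO3 share is lowest in untreated monolayers (23.8 to 26.0%).

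Responses in aggregates and in monolayers were compared by testing differences between responses. The response of primed aggregates was lower than the acute response of monolayers for INSR (difference of log2 fold changes −1.11, SE 0.12, edgeR adjusted p = 3.15e-08), IRS1 (−0.86, SE 0.14, edgeR adjusted p = 3.72e-05) and FOXO3 (−0.51, SE 0.090, edgeR adjusted p = 0.000155). These were 3 of 10, all lower, where 15.1% of all genes differed (8.25% lower and 6.85% higher), and all 4 groups are of 1 set. Without the MYH7 libraries FOXO3 (−0.36) did not pass. For IGF1R (0.13, edgeR adjusted p = 0.329) and PIK3IP1 (0.087, edgeR adjusted p = 0.785) the difference did not pass. These responses differ in time after exposure as well as in culture form.

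Treated aggregates and acutely exposed monolayers both had 24 h of antibody, at 50 and 20 µg/ml. Here 4 genes had lower and 1 a higher response in aggregates (23.5% of all genes differed, 12.2% lower and 11.3% higher), across the sets. Lower were INSR (−1.26, SE 0.12, edgeR adjusted p = 9.38e-10), IRS1 (−1.21, SE 0.14, edgeR adjusted p = 5.33e-08), FOXO3 (−0.72, SE 0.090, edgeR adjusted p = 2.42e-07) and PIK3R1 (−0.45, SE 0.13, edgeR adjusted p = 0.00878, and not passing at −0.60 without the MYH7 libraries). IGF1R was higher (0.24, SE 0.084, edgeR adjusted p = 0.0335). It did not pass without acutely exposed monolayer 1 (0.23) or 3 (0.24), untreated monolayer 3 (0.19), treated aggregate 2 (0.23) or 3 (0.24), untreated aggregate 1 (0.24) or 3 (0.23), or the MYH7 libraries (0.38).

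The log2 fold change with priming was lower in treated than in otherwise untreated aggregates for 3 genes and higher for 1 (12.5% of all genes differed, 7.42% lower and 5.05% higher). The lower ones were INSR (−0.63, SE 0.11, edgeR adjusted p = 0.000209), IGF1R (−0.71, SE 0.079, edgeR adjusted p = 1.28e-07) and PIK3IP1 (−0.47, SE 0.13, edgeR adjusted p = 0.0167). IRS1 had the opposite sign (0.44, SE 0.14, edgeR adjusted p = 0.0284). Each of the 2 differences that enter this value is within 1 set, but the sets are not the same. Primed and untreated aggregates are among the 12 libraries, and both groups given the late dose are among the 9. The late dose and the set therefore cannot be told apart in this test. IRS1 did not pass without primed and treated aggregate 1 (0.43) or 2 (0.42), treated aggregate 1 (0.39), primed aggregate 1 (0.37) or 3 (0.40), untreated aggregate 2 (0.39) or the MYH7 libraries (0.47), nor with only the compared groups fitted (0.44, adjusted p = 0.0574). PIK3IP1 did not pass without primed aggregate 3 (−0.36) or untreated aggregate 2 (−0.44), so 2 genes were left without either of these libraries. FOXO3 (0.10, SE 0.086, edgeR adjusted p = 0.514) and IRS2 (0.031, SE 0.30, edgeR adjusted p = 0.969) did not pass.

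**Figure D4:**
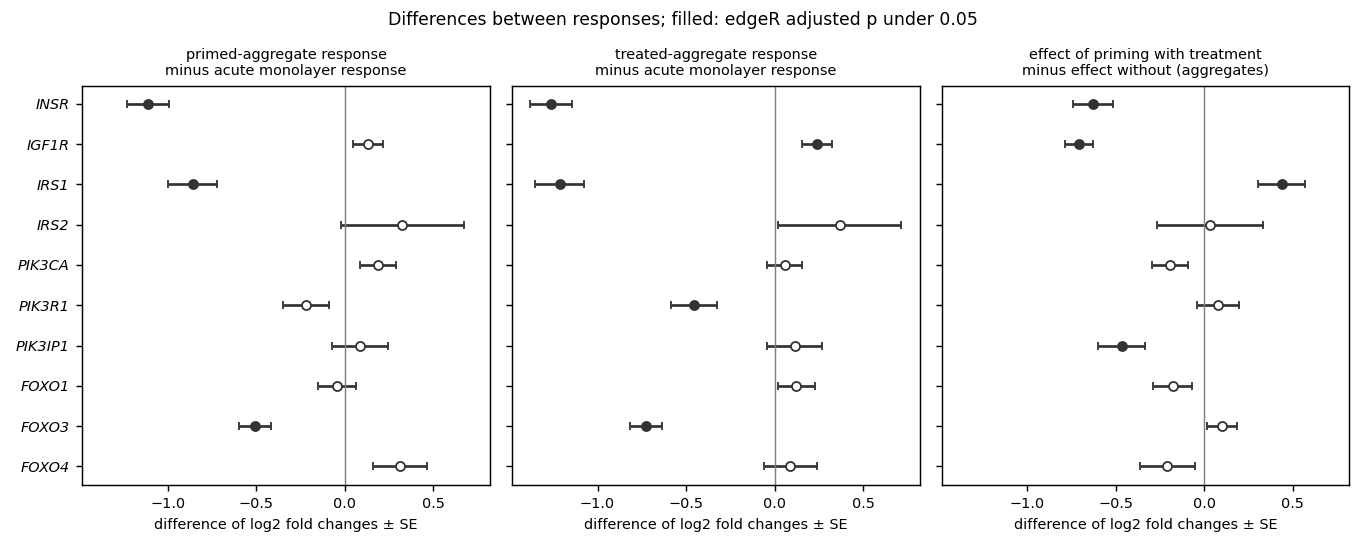
Difference between 2 log2 fold changes ± SE (horizontal axes) for each gene in 3 tests of whether responses differ. Filled points passed the edgeR threshold and open points did not. INSR is left of 0 and filled in all 3 panels, at −1.11, −1.26 and −0.63.

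Other genes of the pathway were followed in 6 lists, 90 of whose genes were tested. After 24 h in monolayers 27 of the 90 rose and 5 fell, beside 11.3% and 8.91% of all genes, the shares against which each list count in this paragraph is to be read. The FOXO target list, genes reported to be raised by FOXO factors, had 15 of 26 higher and 1 lower, with a median log2 fold change of 0.23. Its largest rises were the death ligand TNFSF10 (1.501, SE 0.17, edgeR adjusted p = 2.08e-06) and the transcription factor KLF2 (1.20, SE 0.32, edgeR adjusted p = 0.00660), and its fall was the peroxiredoxin PRDX3 (−0.18, SE 0.053, edgeR adjusted p = 0.0114). Of 11 phosphatases that oppose PI3-kinase 2 rose and 1 fell. The lipid phosphatase INPP4B rose from 13.7 to 29.2 CPM (log2 1.09, SE 0.083, edgeR adjusted p = 3.02e-12), INPP5K rose (0.41) and the AKT phosphatase PHLPP2 fell (−0.26). Receptor adaptors gave 3 rises and 1 fall of 15, among them the ubiquitin ligase CBLB (0.60) and SH2B2 (0.59) upward and GRB14, which binds the insulin receptor and inhibits it, downward (−0.72). Among 19 AKT and mTOR genes 5 rose, with the mTOR inhibitor DEPTOR (0.36) and the translation repressor EIF4EBP1 (0.32), and 1 fell (GSK3B, −0.19). Of 11 other PI3-kinase subunits 1 rose (PIK3R2, 0.24) and 0 fell. Of 8 ligand and binding protein genes the clearance receptor IGF2R rose (0.18) and IGFBP5 fell (−0.74).

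In primed aggregates 29 of the 90 rose and 14 fell, where 11.5% of all genes rose and 9.66% fell, and the list counts that follow stand beside those shares. Of the FOXO targets 12 of 26 rose and 3 fell. TXNIP, an inhibitor of glucose uptake, averaged 354 against 103 CPM (1.78, SE 0.20, edgeR adjusted p = 1.56e-05) and TNFSF10 also rose (1.12), while CITED2 (−0.97) and BNIP3 (−0.34), both also hypoxia-induced, fell. INPP4B (0.46) and INPP5K (0.35) rose, 2 of 11 phosphatases with 0 falls. The docking proteins GAB2 (0.50) and GAB1 (0.41) led 5 rises among 15 adaptors, with SH2B2 (−0.52) and DOK1 (−0.51) among 3 falls. PIK3C2B (0.31) and PIK3C2A (0.25) were the 2 of 11 other PI3-kinase subunits that rose, and 0 fell. AKT and mTOR genes were evenly divided, 6 rises and 6 falls of 19, with RICTOR (0.42) and TSC1 (0.35) upward and TBC1D7 (−0.36) and RHEB (−0.24) downward. Of the 8 ligand and binding protein genes IGFBP7 (2.29) and IGF2R (0.30) rose and IGFBP3 (−0.74) and IGFBP5 (−0.31) fell.

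Growth in 3D went with 37 rises and 31 falls among the 90, where 32.9% of all genes rose and 31.1% fell. With shares this large, the list counts here describe the lists and are not read as results about them. The binding proteins IGFBP3 (3.92, SE 0.31, edgeR adjusted p = 6.48e-13) and IGFBP2 (1.82, SE 0.15, edgeR adjusted p = 1.62e-09) led 4 rises of 8, and IGFBP7 (−1.41) and IGF2R (−0.55) were the 2 falls. Adaptors gave 7 rises and 4 falls of 15, with DOK1 (2.54) and GRB10 (1.81) highest and SH2B3 (−0.92) and the phosphatase PTPN1 (−0.42) lowest. Of the other PI3-kinase subunits 2 of 11 rose (PIK3R5, 1.53, and PIK3R2, 0.20) and 6 fell, with PIK3CG (−1.67) and PIK3C2B (−0.98) lowest. FOXO targets gave 12 rises and 8 falls of 26, with KLF2 (2.48) and the pyruvate dehydrogenase kinase PDK4 (2.39) upward and SESN3 (−1.07) and SOD2 (−0.89) downward. Of 11 phosphatases 5 rose and 4 fell, with INPP4B (1.22) and INPP5E (1.22) upward. AKT and mTOR genes gave 7 rises and 7 falls of 19, with EIF4EBP1 (1.54) and DEPTOR (1.005) upward and RPS6KB1 (−0.82) and PDPK1 (−0.73) downward.

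Priming in treated aggregates went with 11 rises and 4 falls among the 90, where 3.18% of all genes rose and 4.80% fell. Of these 9 rises and 2 falls were among the 26 FOXO targets. TXNIP (0.66, SE 0.19, edgeR adjusted p = 0.0441) and the ubiquitin ligase FBXO32 (0.39, SE 0.052, edgeR adjusted p = 4.65e-06) led the rises, and KLF2 (−0.77) and CITED2 (−0.30) fell. The other rises were CBL (0.25) and DEPTOR (0.28) and the other falls IGFBP2 (−0.62) and AKT1S1 (−0.19).

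Across the 21 libraries the pattern of log2 CPM was compared between genes by Pearson's r, given as a description, since the libraries share groups and sets. Within the 10, PIK3R1 and PIK3IP1 were most alike (r = 0.92), followed by PIK3IP1 and FOXO3 (0.90), and PIK3R1 and FOXO1 were most opposite (−0.90). FOXO4 and IRS1 were also opposite (−0.85). The search for the nearest genes left out pseudogenes, genes without a symbol or RefSeq type, and those with LOC, LINC, MIR or clone-type names. Of the genes searched, INSR was most like ETV3 (0.94), ITGB5 (0.94) and NIBAN2 (0.94). IGF1R was most like ITPR3 (0.98), WWC3 (0.98) and OPN3 (0.97). FOXO3 was most like COQ8A (0.97), TSPAN9 (0.96) and TMPRSS4 (0.96), and PIK3IP1 was most like MUC15 (0.98), IDS (0.97) and SOWAHC (0.97). For IRS1 the nearest were DHX30 (0.95), AMOTL2 (0.94) and TGFB2 (0.93), and for IRS2 GATAD1 (0.96), CCDC160 (0.95) and SEPTIN10 (0.95). For FOXO1 they were AMIGO2 (0.98), MFSD1 (0.97) and PAWR (0.97), and for FOXO4 NR1D2 (0.95), NBR1 (0.95) and FAM172A (0.95). PIK3CA was nearest to BLTP1, UBE4A and MIGA1 (each 0.93), and PIK3R1 to TBL1X, ZNF623 and VEGFC (each 0.98).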

How the data were processed

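RNA of 21 AU565 samples was sequenced as TruSeq libraries, per the labels' protocols. The deposited values are whole-number read counts per gene, and the submitters' processing notes name featureCounts, limma and the build hg38, with no versions; the strand setting, annotation and treatment of multiply matching reads are not given in the sources used here. Symbols were those in the table (174 of 16553 genes had none). The columns of the primed aggregates carry that word and their titles do not; they were matched through the treatment protocol. Genes low in counts (584, 0.0116% of all counts) were removed with edgeR 4.0.16 (R 4.3.3), counts were scaled by TMM, and 1 robust quasi-likelihood fit over the 7 groups gave 9 pairwise comparisons and 3 differences of responses, with Benjamini-Hochberg adjustment over 15969 genes. Replicates differed by more than counting noise (chi-squared per degree of freedom 2.48 to 11.5 over 21 pairs), and none was merged. The fit was tested on simulated data. Same-numbered replicates did not deviate together (63 pairs, r −0.15 to 0.18, median −0.0088), so the numbers were not used as pairs. The members and lists were chosen with earlier results of these data known. Named were all 10 members and, of each pathway list, genes among the 2 with the largest called rise and the 2 with the largest called fall (mean of at least 1 CPM in a compared group). Also named were the 3 genes most like each member, with pseudogenes and LOC, LINC, MIR and clone-type names left out. Alternatives were RLE size factors, no filter, a minimum mean of 10 CPM, DESeq2 1.42.0, limma 3.58.1 voom, only the groups compared, a replicate block, each library left out, and the 6 libraries with MYH7 above 1 CPM left out.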

Additional observations from a re-analysis of the deposited data

Results flagged for a closer look

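The responses that differed, by the edgeR test of the difference itself, were 12 values of 6 genes. Where aggregates are set against monolayers, culture form cannot be told apart from matrigel. Time after exposure differs there too for primed aggregates, and dose for treated aggregates. Between primed aggregates and acutely exposed monolayers they were INSR (difference of log2 fold changes −1.11), IRS1 (−0.86) and FOXO3 (−0.51). Between treated aggregates and acutely exposed monolayers, across the sets, they were INSR (−1.26), IGF1R (0.24), IRS1 (−1.21), FOXO3 (−0.72) and PIK3R1 (−0.45). Between the effects of priming in treated and in otherwise untreated aggregates they were INSR (−0.63), IGF1R (−0.71), IRS1 (0.44) and PIK3IP1 (−0.47). In this last test the late dose and the set cannot be told apart. INSR and IRS1 differed in all 3 tests. In IRS1 the sign of the change itself differed, from a called rise in acutely exposed monolayers to a called fall in treated aggregates, the latter across the sets.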

How the results depend on the processing

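No called log2 fold change of the 10 genes, of 120 in all, reversed its sign under the alternatives run for it. The minimum mean of 10 CPM gave no value for IRS2, which it removed, and kept 106 of the other 108 on the same side of the threshold. DESeq2, limma voom and RLE size factors each left 119 of the 120 on the same side of the threshold, and no filter left all 120. With the replicate block 118 stayed, FOXO3 in treated aggregates passed (0.15) and IRS2 with priming in treated aggregates did not (0.61). The count of the 10 genes called with priming in treated aggregates was 2, and it was 1 with the replicate block, 1 at a minimum mean of 10 CPM (which removes IRS2 before the test), 4 with only the groups compared and 1 without any 1 library. Genes called there were 1274 of all tested, 2050 with only the groups compared and 695 to 1138 without 1 library. The 10 gave 1 to 3 calls with the second dose and 2 to 4 in the test of priming by treatment without 1 library. With only the groups compared, genes called in primed aggregates fell from 3379 to 2177. Without the libraries with MYH7 the genes called were 727 in acutely exposed monolayers (3222 with them), 2176 in primed aggregates, 268 (2411) in the difference between the primed aggregate and acute responses and 1178 (3757) in that between the treated aggregate and acute responses, where 3 of the 10 genes passed in place of 5. That setting leaves fewer samples, 1 per group in the acute comparison. Depth limits IRS2 most, at 5 to 40 reads per monolayer library.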

Other observations

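The other pathway genes are given here for comparisons across the sets, in which set and treatment cannot be told apart. In primed against untreated monolayers 33 of 90 rose and 29 fell, shares near the 33.7% and 31.6% of all genes. Of 26 FOXO targets 9 rose and 12 fell there, with a median log2 fold change of −0.064. IGFBP5, a binding protein for insulin-like growth factors, was at 338 against 59.3 CPM (log2 2.51, SE 0.096, edgeR adjusted p = 1.44e-15), while it had fallen after 24 h of antibody. IGFBP3 (3.10), the transcription factor KLF2 (3.90), the catalytic subunit PIK3CD (1.83, 9.96 against 2.78 CPM), the lipid phosphatase INPP5E (1.73) and the adaptor GRB10 (1.56) were also higher. The genes named for this comparison are rises only, and each list also held falls. Adaptors gave 7 rises and 6 falls of 15, and other PI3-kinase subunits 3 rises and 4 falls of 11.

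In primed against acutely exposed monolayers 4 of 26 FOXO targets rose and 14 fell (median log2 fold change −0.28), where 32.3% of all genes rose and 30.1% fell. In treated against untreated aggregates 39 of 90 rose and 15 fell, where 18.8% of all genes rose and 17.9% fell. Among the 26 FOXO targets there were 17 rises and 6 falls there. TXNIP was at 392 against 103 CPM (1.92, SE 0.20, edgeR adjusted p = 2.24e-06), and at 617 with both exposures (2.58, SE 0.20, edgeR adjusted p = 1.23e-07). CITED2 fell in both (−1.002 and −1.31). IGFBP3, which had risen with growth in 3D, was lower in treated (−2.03) and in primed and treated aggregates (−1.88).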
